A study of Mus musculus with 10 samples.

Results

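Heparan sulfate is a long, sulfated sugar chain carried by a small group of core proteins, and the genes studied here encode those core proteins and the enzymes that build, modify and trim the chain. The set was defined by name as 38 genes, and every gene of the set that had a row in the table of expression values was taken, which gave 32 of the 14106 genes measured. The 6 genes without a row in the table used here were Extl1, Hs3st2, Hs3st3a1, Hs3st3b1, Hs6st2 and Hpse. The set was proposed with earlier results of these same data known, so its summary values are given as descriptions beside the same values over all genes.

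A heparan sulfate proteoglycan starts as a core protein. A linker of 4 sugars is attached to a serine of that protein, the chain is then extended on the linker in the Golgi, and sulfate groups are added in patterns that decide which growth factors, proteases and lipoproteins can bind. In brain vessels the chains sit in the basement membrane and on the luminal face of the endothelium, where they form part of the glycocalyx, and heparan sulfate is also found with amyloid deposits in Alzheimer's disease.

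The libraries were made from brain endothelial cells (BECs) of the cortex of female mice about 1 year old. The APP/PS1 mice carried a chimeric mouse and human amyloid precursor protein transgene with the Swedish mutation together with mutant human presenilin 1 lacking exon 9, on a C3H/BL6 background, and the controls were female wild-type mice of the same age and background. The comparison thus concerns a transgenic model of amyloid deposition whose transgenes are expressed throughout the body. Cortex was dissociated, myelin was removed, and CD31-positive, CD45-negative cells were enriched with magnetic beads. There were 5 libraries in each group, and nothing read here says if each library stands for a single animal or for pooled animals, so the p-values measure the spread between these libraries.

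The deposited values were log2 CPM (counts scaled to a common library total, on the log2 scale) after the authors' correction for batch, and they converted back to whole adjusted counts in all 10 libraries. Adjusted counts summed to between 22993426 and 126686149 in the control libraries and to between 22371766 and 114525432 in the APP/PS1 libraries, with replicate 1 the shallowest in both groups. The correction had set the mean of each same-numbered pair of libraries nearly equal, gene by gene: the median SD was 0.00353 log2 units for pair means and 0.173 for the differences within pairs. A library above the overall mean was therefore mirrored by a partner below it, and the 5 differences within pairs were the independent data. Of the 9 endothelial markers examined, all were present, with a summed level of 18000 to 18800 CPM in the control libraries and 18900 to 19800 CPM in the APP/PS1 libraries. Markers of other cell types were detected too, at the levels given beside the results they moved with.

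Per kilobase of exon, the set spanned a wide range in these cells, from 0.0783 CPM per kilobase for Gpc5 in APP/PS1 libraries to 111 for Agrn, counting adjusted counts over merged exons. The most abundant transcript was Agrn, encoding agrin, a secreted basement membrane proteoglycan best known for clustering receptors at the neuromuscular junction. Its level was 105 ± 4.11 CPM per kilobase (SD, n = 5) in control libraries, at percentile 97.9 of all genes in the table. Extl3, the enzyme that adds the first N-acetylglucosamine and so commits the linker to heparan sulfate, came next at 73.5 ± 4.17, followed by the transmembrane core protein Sdc3 (syndecan 3) at 61.8 ± 2.35. The basement membrane core protein Hspg2 (perlecan) stood at 44.1 ± 3.54 and Hs3st1, a sulfotransferase that completes the antithrombin-binding site, at 34.8 ± 1.81. Each of these 5 genes lay at or above percentile 90.6 of all genes.

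Levels of the leading gene differed between roles, and the remodelling enzymes were led by Sulf2, a low-level gene at percentile 22.6. The leading linker enzyme was B3gat3, which adds the glucuronic acid that ends the linker, at 11.7 ± 0.619 CPM per kilobase in control libraries. Gpc4 was the leading glypican, a class of core proteins held in the membrane by a lipid anchor, but at 4.79 ± 0.185 it was well below the leading syndecan. At the other end stood Gpc1 (0.242 ± 0.0241), B3gat1 (0.198 ± 0.0513) and Gpc5 (0.149 ± 0.0393), which lay at percentiles 3.8, 2.5 and 1.8. Gpc1 had 12 to 152 adjusted counts per library, Gpc5 6 to 77 and B3gat1 3 to 110, so counting error was part of the spread of these 3 genes.

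**Figure D1:**
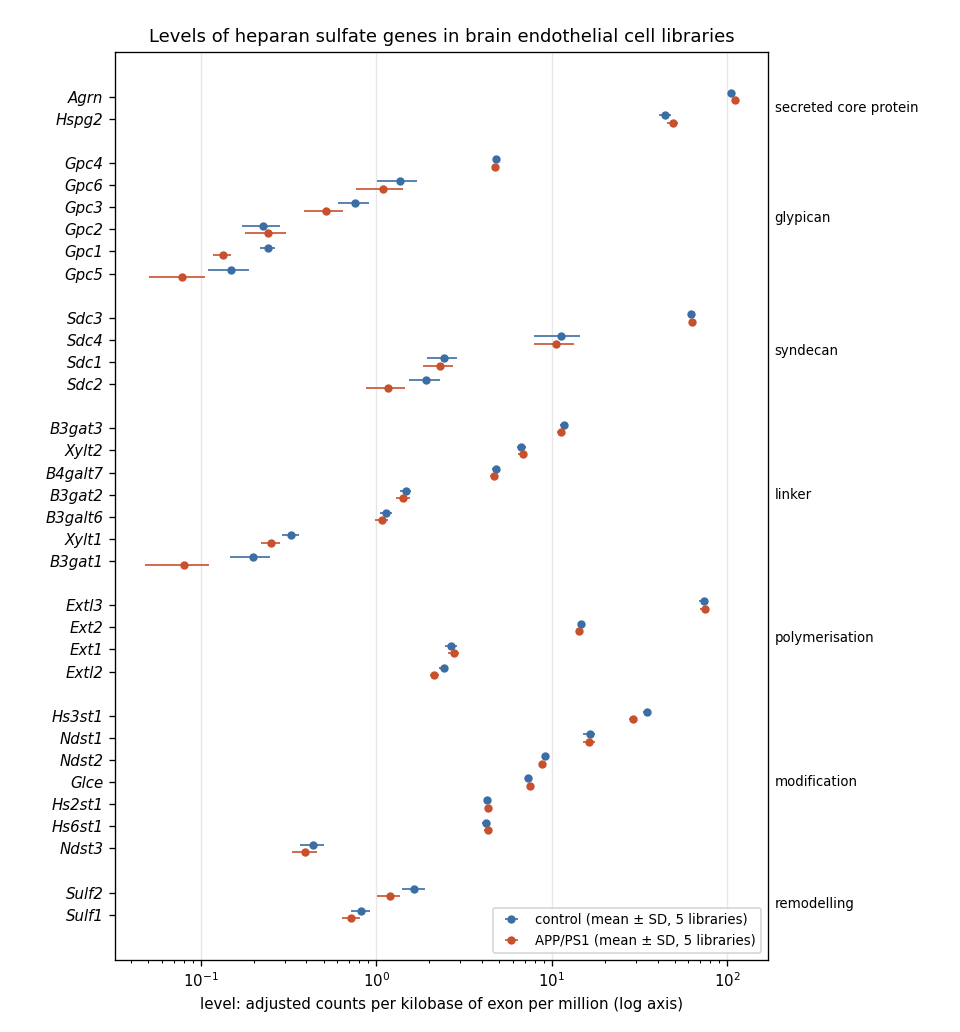
Level of each of the 32 genes in control and APP/PS1 libraries, as CPM per kilobase of exon on a log axis, with points for the mean and bars for the SD over 5 libraries. Agrn, Extl3, Sdc3, Hspg2 and Hs3st1 are at the top, and Gpc1, B3gat1 and Gpc5 are at the bottom.

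To show how the start regions of high and low members look, windows of 300 bases, 250 before and 50 after the start that RefSeq lists for the gene, were taken from RefSeq (GRCm38.p6), which held a window for 23 of the 32 genes. Capitals mark the GC box, GGGCGG on either strand, a short motif bound by Sp-family factors in many promoters without a TATA box. The 3 windows are those of Agrn, the most abundant member, Hs3st1, the most abundant modification enzyme, and Gpc5, the least abundant member. They lie at chr4:156197439-156197738 on the minus strand, chr5:39644582-39644881 on the minus strand and chr14:115091965-115092264 on the plus strand.
Agrn: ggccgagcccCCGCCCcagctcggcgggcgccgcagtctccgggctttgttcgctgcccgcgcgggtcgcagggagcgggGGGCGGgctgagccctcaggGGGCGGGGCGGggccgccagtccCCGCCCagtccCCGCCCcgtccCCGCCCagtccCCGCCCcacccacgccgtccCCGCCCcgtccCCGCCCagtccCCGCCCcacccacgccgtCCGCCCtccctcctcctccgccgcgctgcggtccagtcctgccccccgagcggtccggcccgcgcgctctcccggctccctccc
Hs3st1: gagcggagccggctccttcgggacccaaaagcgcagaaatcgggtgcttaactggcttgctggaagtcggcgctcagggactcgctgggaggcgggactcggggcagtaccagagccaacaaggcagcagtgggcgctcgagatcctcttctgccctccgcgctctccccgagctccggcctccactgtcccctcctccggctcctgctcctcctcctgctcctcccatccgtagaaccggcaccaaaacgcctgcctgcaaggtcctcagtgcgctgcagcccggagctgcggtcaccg
Gpc5: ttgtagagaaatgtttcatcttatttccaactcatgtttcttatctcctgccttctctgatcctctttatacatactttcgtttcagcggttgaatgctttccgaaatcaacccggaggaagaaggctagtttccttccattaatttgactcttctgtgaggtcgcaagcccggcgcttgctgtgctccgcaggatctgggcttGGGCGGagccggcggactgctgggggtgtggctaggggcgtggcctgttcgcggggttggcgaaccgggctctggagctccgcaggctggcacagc
The Hs3st1 window lies inside the GENCODE span of that gene, 3 bases from the start of a shorter transcript. The Agrn window held 42 CpG dinucleotides and 12 GC boxes, counting boxes that overlap, the Hs3st1 window 24 CpG and 0 GC boxes, and the Gpc5 window 17 CpG and 1 GC box. A GC box was present in 16 of the 23 member windows (69.6%) and in 65.0% of the 9770 windows of all genes examined. The CCAAT box, searched as CCAAT on both strands, was present in 7 of 23 (30.4%) against 38.4% of all windows, and TATAAA in 2 of 23 (8.7%) against 6.91%. The member windows held a median of 23 CpG (range 1 to 48) against 21 over all windows.

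No gene of the set passed the test between APP/PS1 and control BECs after adjustment over all genes. With limma fitted to genotype and pair, 0.0% of the 14106 genes and 0 of the 32 passed an adjusted p of 0.05. The set came nearest with Gpc1 (adjusted p = 0.303). At an unadjusted p under 0.05, 7 of the 32 genes (21.9%) were lower in APP/PS1, against 5.91% of all genes, and 0 were higher, against 2.13% of all genes. The 7 genes were Gpc1, Hs3st1, B3gat1, Sdc2, Xylt1, Gpc5 and Sulf2. The APP/PS1 library was below its control partner in all 5 pairs for 4 genes (12.5%), Gpc1, Hs3st1, Xylt1 and B3gat1, against 5.0% of all genes, and above it in all 5 pairs for 0, against 2.99%. The groups did not overlap, with all control libraries above all APP/PS1 libraries, for the same 4 genes against 4.96% of all genes, and the reverse held for 0 against 2.91%. This count repeats the one before it. With nearly equal pair means, a gene that is lower in all 5 pairs also has separate groups, here and for the single genes below. Without pair 1 the 7 genes became 4, B3gat1, Gpc1, Hs3st1 and Xylt1 (all genes 3.67%), and without pair 3 they became 4, B3gat1, Gpc1, Hs3st1 and Sdc2 (all genes 3.89%). Gpc1, Hs3st1 and B3gat1 had such a p whichever pair was left out. Sdc2 lost it without pair 1 or 4, Xylt1 without pair 3 or 5, Gpc5 without pair 1, 3 or 5, and Sulf2 without pair 1, 2, 3 or 5. Without pair 5 the count stayed at 7 (all genes 4.96%), but Extl2, Gpc3 and Gpc6 took the place of Xylt1, Gpc5 and Sulf2.

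The pair term changed the calls of this comparison. Without it, Gpc1 (adjusted p = 0.00238) and Hs3st1 (adjusted p = 0.0179, limma) passed the threshold, as did 648 of the 14106 genes. Because the batch correction had already removed the pair means, the fit without the term counts 8 residual degrees of freedom where the 5 pair differences leave 4.

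Across the set, 22 genes had a log2 fold change below 0 and 10 above 0, with a median of -0.05, against 51.8% below 0 and a median of -0.0038 over all genes. The direction was not shared by all pairs: the median of the set was -0.11, -0.09, -0.18 and -0.05 in pairs 1 to 4 and 0.04 in pair 5. Level separated the set more clearly. Of the 17 members in the lower range of expression, up to the all-gene median of 4.3 log2 CPM, 16 had a log2 fold change below 0, against 61.2% of all genes at such levels, 6 had an unadjusted p under 0.05, against 9.98%, and 3 were lower in all 5 pairs, against 7.1%. Of the 15 genes above that level, 6 had a log2 fold change below 0, against 42.5%, and 1, Hs3st1, had such a p, against 1.83%. The low-level members ranged from -1.32 to 0.09 with a median of -0.18 (all low-level genes -0.04), and the others from -0.26 to 0.15 with a median of 0.02 (all high-level genes 0.01). The low members also varied more between pairs, with a median SD of the pair differences of 0.44 against 0.149 for the others. Over all genes the same medians were 0.258 at low and 0.122 at high levels.

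**Figure D2:**
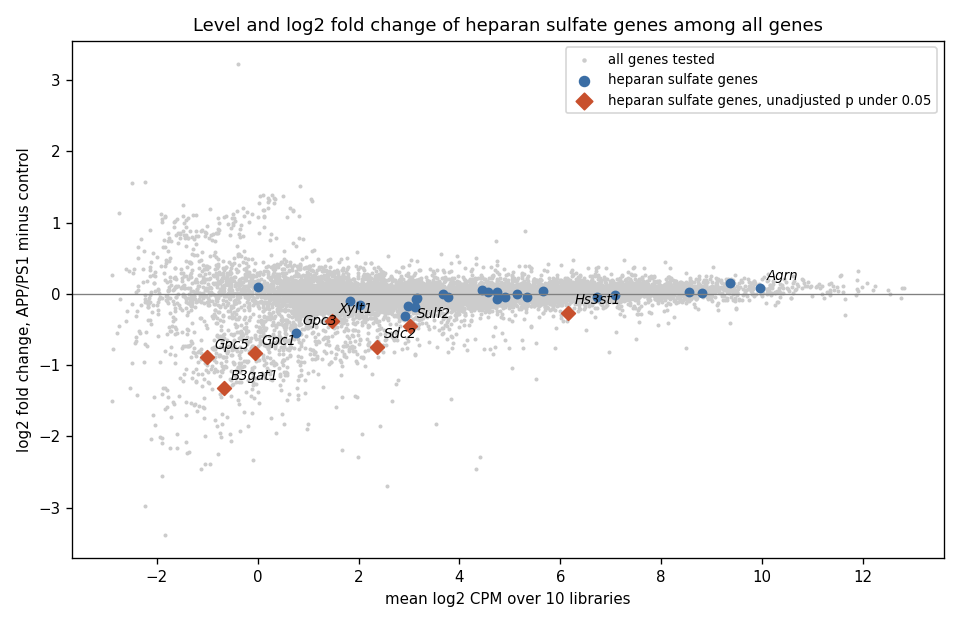
Log2 fold change of APP/PS1 over control BECs against mean log2 CPM for all 14106 genes (grey), the 32 heparan sulfate genes (blue) and the 7 of them with an unadjusted p under 0.05 (red). Of those 7, Hs3st1 is the only gene above 4.3 log2 CPM.

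The 2 secreted core proteins, the abundant scaffold of the basement membrane, were slightly above control in 4 of 5 pairs each. Agrn had log2 CPM of 9.94, 10.02, 9.89, 9.91 and 9.88 in control replicates 1 to 5 and 9.99, 9.91, 10.04, 10.03 and 10.06 in APP/PS1 replicates 1 to 5. Hspg2 had 9.14, 9.46, 9.32, 9.32 and 9.25 in controls and 9.58, 9.28, 9.43, 9.43 and 9.50 in APP/PS1. In both genes pair 2 ran against the other 4, and the groups overlapped. The log2 fold change was 0.08 for Agrn (SE 0.0575, 95% interval -0.06 to 0.22, adjusted p = 0.817) and 0.15 for Hspg2 (SE 0.0926, interval -0.08 to 0.37, adjusted p = 0.796). Without pair 2 the unadjusted p-values of Agrn and Hspg2 were 0.0476 and 0.0324 and the adjusted ones 0.35 and 0.316 (limma). Leaving out pair 2 also raised the unadjusted calls over all 14106 genes, both directions together, from 1133 to 2008.

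The glypicans had the lowest class median, -0.43, with 5 of 6 below 0 and 2 with an unadjusted p under 0.05. Gpc1, on the plus strand of chromosome 1 (GRCm38, 92831645 to 92860779), encodes a core protein that takes part in fibroblast growth factor signalling. Its log2 CPM was 0.58, 0.34, 0.33, 0.24 and 0.28 in control replicates 1 to 5 and -0.79, -0.44, -0.41, -0.35 and -0.39 in APP/PS1 replicates 1 to 5. Every control library was above every APP/PS1 library, and pair 1 was the farthest apart. The APP/PS1 mean was 0.562 times the control mean on this scale, a log2 fold change of -0.83 (SE 0.1228, 95% interval -1.13 to -0.53, unadjusted p = 0.000588 in limma). The exact two-sided sign-flip permutation test over the 5 pairs gave p = 0.0625, which is the smallest value that 5 pairs allow.

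Gpc5 (chromosome 14, 115092215 to 116525179, plus strand), a glypican that astrocytes make in the adult brain, had log2 CPM of -0.23, -1.06, -0.15, -0.73 and -0.60 in controls and -1.71, -0.85, -2.08, -1.21 and -1.36 in APP/PS1. Pair 2 went the other way and the groups overlapped. APP/PS1 differed from control by a log2 fold change of -0.89 (SE 0.3141, interval -1.67 to -0.11, unadjusted p = 0.031, adjusted p = 0.58 in limma) and the exact sign-flip p was 0.13. Its astrocyte context is given further on.

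The remaining glypicans had wide intervals around 0 or, for Gpc4, a narrow one. Gpc3, whose human counterpart is lost in an overgrowth syndrome, averaged 1.03 ± 0.28 log2 CPM in controls and 0.48 ± 0.36 in APP/PS1 (SD, n = 5), a log2 fold change of -0.55 (interval -1.15 to 0.04, adjusted p = 0.661 in limma) with pair 5 in the other direction. Gpc6, which like Gpc4 is known as an astrocyte signal for synapse formation, had pair differences of -1.01, -0.76, -0.36, -0.53 and 1.11, so the 1 pair above 0 was farther from 0 than any pair below it. Its log2 fold change was -0.31 (adjusted p = 0.861) over all pairs and -0.67 (adjusted p = 0.551 in limma) without pair 5. Gpc2, of developing neurons, split 3 pairs to 2 with a log2 fold change of 0.09 (interval -0.59 to 0.77). Gpc4, the leading glypican, had log2 CPM of 3.64, 3.66, 3.76, 3.67 and 3.61 in controls and 3.69, 3.67, 3.57, 3.67 and 3.72 in APP/PS1, and its log2 fold change of -0.01 had an interval of -0.15 to 0.13. Gpc3 and Gpc4 are neighbours on chromosome X, 107173 bases apart, and Gpc5 and Gpc6 on chromosome 14, 400135 bases apart.

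Among the syndecans, Sdc2 was the single gene with an unadjusted p under 0.05. Sdc2 (chromosome 15, 32920723 to 33034935, plus strand), a syndecan of mesenchymal cells, had log2 CPM of 3.04, 2.58, 2.68, 3.04 and 2.37 in controls and 1.61, 2.24, 2.14, 1.60 and 2.42 in APP/PS1. Replicates 1 and 4 of both groups set the size of the difference, and pair 5 did not share it. This gave a log2 fold change of -0.74 (SE 0.2513, interval -1.36 to -0.12, unadjusted p = 0.027, adjusted p = 0.571 in limma), and the exact sign-flip p was 0.13.

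Sdc3, the abundant syndecan of these libraries, had log2 CPM of 8.56, 8.61, 8.47, 8.49 and 8.52 in controls and 8.53, 8.48, 8.62, 8.61 and 8.57 in APP/PS1, with a log2 fold change of 0.03 (interval -0.11 to 0.17). Sdc4, a syndecan of focal adhesions, had pair differences of -0.19, -1.25, 0.08, 1.09 and -0.12, so pairs 2 and 4 were more than 1 log2 unit apart in opposite directions and the interval ran from -0.85 to 0.69. Sdc1, of epithelia and plasma cells, was likewise divided, with 4 pairs below 0 and pair 4 at 0.87. Its log2 fold change was -0.08 over all pairs and -0.31 without pair 4 (adjusted p = 0.793 in limma).

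**Figure D3:**
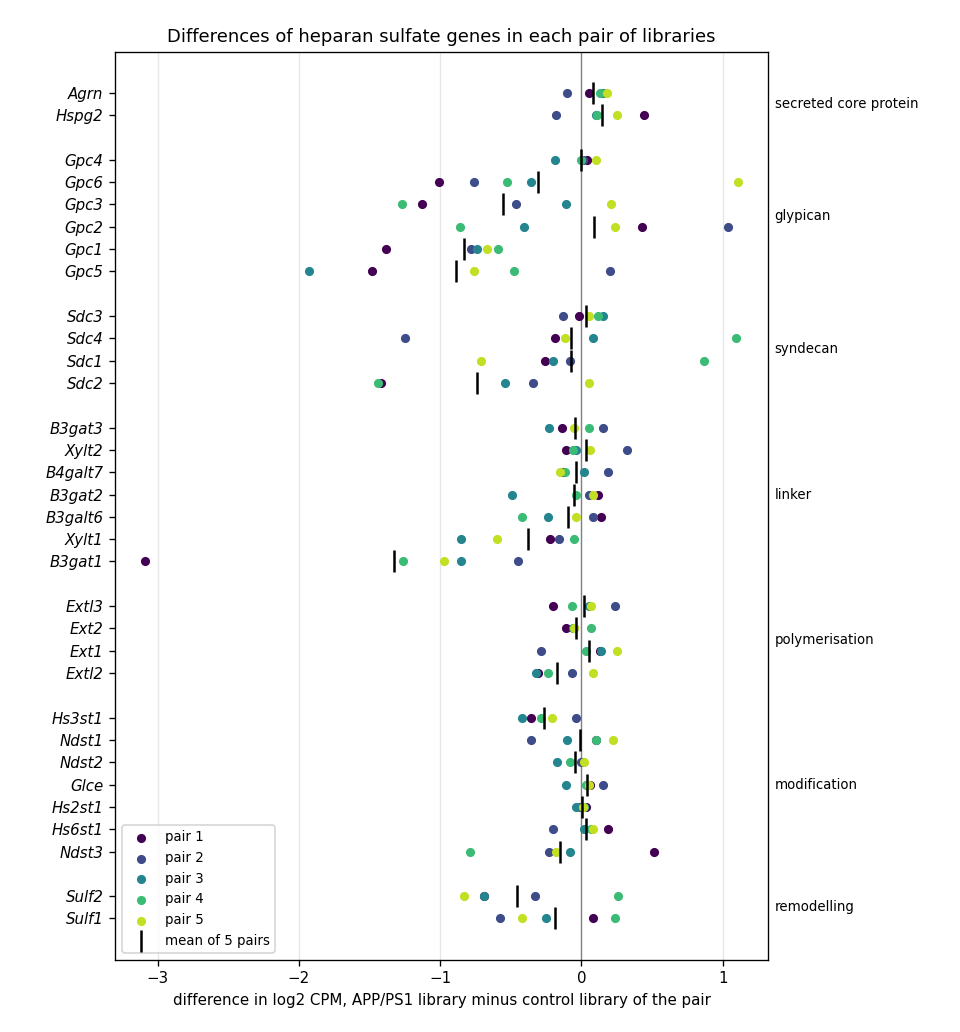
Difference in log2 CPM between the APP/PS1 and the control library of each pair for the 32 genes, grouped by role, with a bar at the mean of the 5 pairs. Gpc1, Xylt1, B3gat1 and Hs3st1 are below 0 in all 5 pairs, while Gpc6, Sdc4, Sdc1 and Gpc2 spread to both sides of 0.

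In the linker class, Xylt2, B4galt7, B3galt6, B3gat3 and B3gat2 had log2 fold changes of -0.10 to 0.03. The 2 genes of the class with an unadjusted p under 0.05, Xylt1 and B3gat1, were those at its lowest levels. Xylt1 (chromosome 7, 117380979 to 117673580, plus strand), 1 of the 2 xylosyltransferases that put the first sugar on the core protein, had log2 CPM of 1.61, 1.56, 1.89, 1.51 and 1.77 in controls and 1.38, 1.40, 1.03, 1.45 and 1.16 in APP/PS1. The groups did not overlap, but pair 4 differed by only -0.05 while pair 3 differed by -0.85. The log2 fold change was -0.38 (SE 0.131, interval -0.70 to -0.06, unadjusted p = 0.0287, adjusted p = 0.575 in limma), with an exact sign-flip p of 0.0625. Its paralog Xylt2, which does the same step and was far higher at 6.70 CPM per kilobase in controls against 0.327 for Xylt1, had a log2 fold change of 0.03 (adjusted p = 0.944).

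B3gat1 (chromosome 9, 26733728 to 26763101, plus strand) is a glucuronyltransferase related to B3gat3 that is better known for making the HNK-1 sugar epitope of neural cells. Its log2 CPM was 0.54, -0.33, -0.13, -0.01 and -0.11 in controls and -2.55, -0.78, -0.97, -1.27 and -1.08 in APP/PS1. No control library was as low as any APP/PS1 library, and pair 1, the shallowest, was the farthest apart. Its fold change was -1.32 on the log2 scale (SE 0.3851, interval -2.28 to -0.37, unadjusted p = 0.0146, adjusted p = 0.556 in limma; exact sign-flip p = 0.0625), and it was -0.88 without pair 1.

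B3gat3, the linker enzyme proper, had log2 CPM of 4.97, 4.81, 5.01, 4.88 and 4.92 in controls and 4.83, 4.97, 4.78, 4.93 and 4.87 in APP/PS1, with a log2 fold change of -0.04 (SE 0.0686, adjusted p = 0.91). The 2 galactosyltransferases B4galt7 (-0.04, SE 0.0667) and B3galt6 (-0.10, SE 0.095), and the paralog B3gat2 (-0.05, SE 0.0999), each had pairs on both sides of 0.

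The 4 measured polymerisation genes had log2 fold changes of -0.17 to 0.05, and none had an unadjusted p under 0.05. Extl3 had log2 CPM of 8.90, 8.68, 8.78, 8.85 and 8.78 in controls and 8.70, 8.92, 8.84, 8.77 and 8.84 in APP/PS1, and its log2 fold change of 0.02 had an interval of -0.16 to 0.20. The copolymerase subunits Ext1 and Ext2, which lengthen the chain, were at 0.05 (interval -0.16 to 0.27) and -0.04 (interval -0.15 to 0.07). Extl2, which caps linkers and so limits chain number, was lower in 4 of 5 pairs with a log2 fold change of -0.17 (SE 0.0744, interval -0.36 to 0.01, adjusted p = 0.653 in limma).

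Of the modification enzymes, Hs3st1 was the 1 of 7 measured genes with an unadjusted p under 0.05, and it was the highest of the class. Hs3st1 (chromosome 5, 39613935 to 39755475, minus strand) had log2 CPM of 6.33, 6.16, 6.35, 6.29 and 6.25 in controls and 5.96, 6.12, 5.93, 6.0 and 6.04 in APP/PS1. The groups were separate, although in pair 2 the libraries were only 0.04 log2 units apart. The log2 fold change was -0.26 (SE 0.0675, interval -0.43 to -0.10, unadjusted p = 0.00845, adjusted p = 0.537 in limma), which is 0.833 times the control level, and the exact sign-flip p was 0.0625. With 1380 to 9388 adjusted counts per library, it was the best counted of the 7 genes.

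The other modification steps were close to control. Ndst1, an N-deacetylase and N-sulfotransferase that opens the chain to all further modification, was at -0.01 (interval -0.24 to 0.22), its relatives Ndst2 and Ndst3 at -0.04 (SE 0.0487) and -0.15 (SE 0.1757), and the epimerase Glce at 0.04 (SE 0.0519). The sulfotransferases Hs2st1 and Hs6st1 were at 0.01 (interval -0.09 to 0.10) and 0.03 (SE 0.0662). Hs2st1 had the narrowest interval of the set. Hs3st1 was also the single member of its sulfotransferase family with a row in the table.

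Sulf1 and Sulf2 are secreted sulfatases that remove sulfate from finished chains outside the cell. Sulf2 (chromosome 2, 166073089 to 166155663, minus strand) had log2 CPM of 3.38, 3.20, 3.38, 2.87 and 3.44 in controls and 2.70, 2.87, 2.69, 3.13 and 2.61 in APP/PS1. Pair 4 ran against the other 4, and its libraries were the lowest control and the highest APP/PS1 value. Over all pairs the log2 fold change was -0.46 (SE 0.168, interval -0.87 to -0.04, unadjusted p = 0.0358, adjusted p = 0.594 in limma), and the exact sign-flip p was 0.13. Sulf1 was at -0.18 (SE 0.1319, adjusted p = 0.819), with 3 of 5 pairs below 0.

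**Figure D4:**
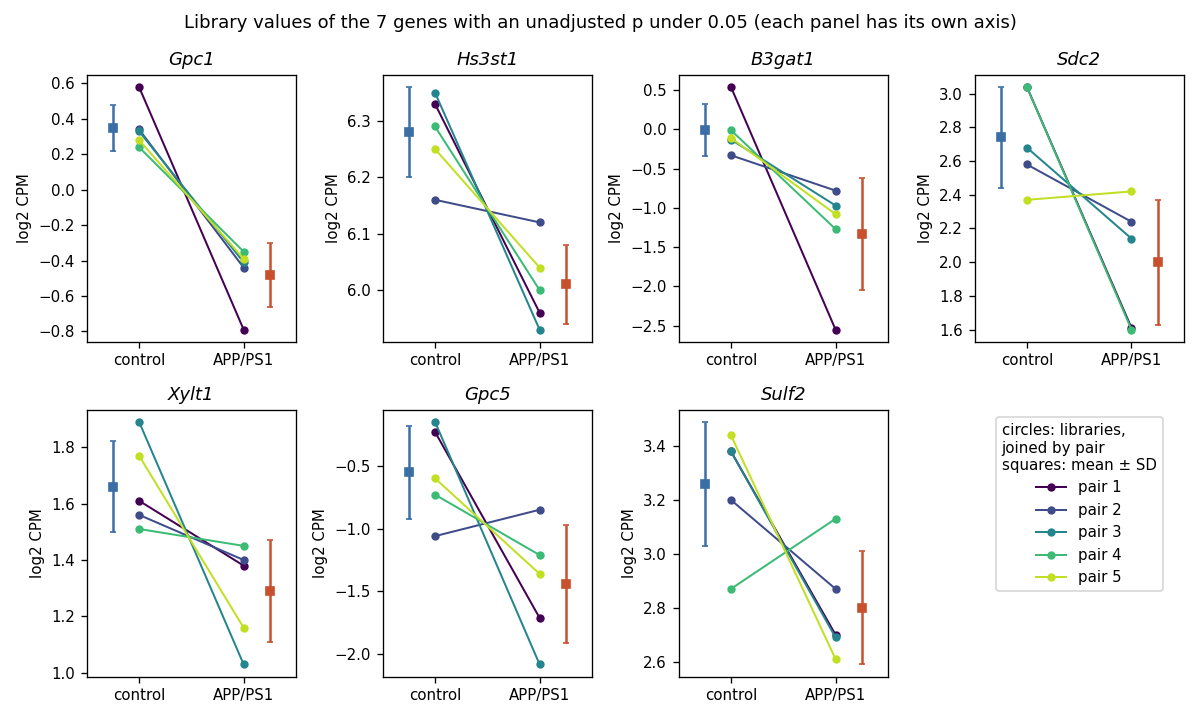
Log2 CPM in each library of the 7 genes below an unadjusted p of 0.05, with lines joining the control and APP/PS1 library of a pair and squares with bars for the mean and SD of 5 libraries. Gpc1, Hs3st1, B3gat1 and Xylt1 have separate groups, and 1 pair runs the other way in Sdc2 (pair 5), Gpc5 (pair 2) and Sulf2 (pair 4).

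Markers of other cell types moved in the same pairs as some of these genes. The 8 pericyte and smooth muscle markers were all lower in APP/PS1, 7 of them at an unadjusted p under 0.05 and 0 at an adjusted p under 0.05, with a summed level of 518 to 870 CPM in controls and 262 to 510 CPM in APP/PS1. The mean log2 CPM of that list differed by -1.52, -0.28, -0.66, -1.43 and -0.06 in pairs 1 to 5. Sdc2 differed by -1.42, -0.34, -0.54, -1.44 and 0.05 in the same pairs, and Gpc3 by -1.13, -0.46, -0.11, -1.27 and 0.21. For both genes the farthest pairs, 1 and 4, and the nearest or opposite pair, 5, were those of the list. The 3 fibroblast markers present of 6 were lower too, with summed levels of 11.7 to 18.2 CPM in controls and 7.0 to 12.2 in APP/PS1. The most abundant of the 3, Pdgfra, also stands in the oligodendrocyte precursor list. Its control mean was 3.35 log2 CPM, against 0.39 for Dcn and 1.52 for Col1a2. The part of pericytes, smooth muscle cells and fibroblasts in the values of Sdc2 and Gpc3 was not tested. In such bulk libraries fewer cells of a type and less RNA per cell cannot be told apart.

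The astrocyte markers, 7 of 8 lower and 2 at an unadjusted p under 0.05, had a mean that differed by -2.36, 0.58, -1.43, -0.99 and 0.03 in pairs 1 to 5, beside -1.48, 0.20, -1.93, -0.48 and -0.76 for Gpc5. In both, pair 2 lay above 0 and pairs 1 and 3 were the lowest, but pair 5 was -0.76 for Gpc5 and 0.03 for the list. Within the list, Gfap (-0.31) and Gja1 (-0.17) were below 0 in pair 2. The oligodendrocyte list was above 0 in pair 2 as well. The part of astrocytes in the values of Gpc5 was not tested. The summed astrocyte level was 170 to 208 CPM in controls and 170 to 212 CPM in APP/PS1, with Gja1, the most abundant of the list, at a log2 fold change of 0.27 (unadjusted p = 0.0875 in limma). The neuron markers present (4 of 9) had a mean that differed by -1.52, -0.19, -0.45, -0.91 and -0.91, with summed levels of 93.7 to 117 CPM in controls and 97.8 to 122 in APP/PS1. The oligodendrocyte list (7 of 8 present) differed by -3.16, 2.09, -1.65, -2.76 and -1.88 and summed to 801 to 1180 CPM against 677 to 925 CPM, with Mag listed at 0 in a library. Mal, the most abundant of that list, had a log2 fold change of -0.09. Mbp and Mobp differed by 5.79 and 6.09 in pair 2 and were below 0 in the other pairs. B3gat1 differed by -3.09, -0.45, -0.85, -1.26 and -0.97, and thus shared pair 1 as its lowest with the astrocyte, neuron and oligodendrocyte lists, whose part in its values was not tested.

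The pairs of Gpc1 (-1.38, -0.78, -0.74, -0.59 and -0.67) were lowest in pair 1, as in those lists, and were at or beyond -0.59 in every pair. In pair 5 the non-endothelial list means ran from -1.88 (oligodendrocyte) to 0.37 (oligodendrocyte precursor). The pericyte, astrocyte and neuron means in that pair were -0.06, 0.03 and -0.91. The means of the neuron list and the pericyte and smooth muscle list were below 0 in all 5 pairs as well. Of the neuron markers, Snap25 alone was. Stmn2, the most abundant of them, had a log2 fold change of 0.02, and Gad1 was higher in pairs 4 and 5 (0.49 and 0.15). Below 0 in all 5 pairs too were 3 markers of oligodendrocyte precursors, Sox10 (-1.33, -1.14, -0.88, -0.96 and -1.30, adjusted p = 0.195 in limma), Olig1 and Olig2. The same held for Acta2 (-1.21, -0.32, -0.77, -1.35 and -0.55) and Myh11 of the pericyte and smooth muscle list. It also held for Gfap of the astrocyte list and for Cnp and Cldn11 of the oligodendrocyte list. Vcan, Gpr17 and Pcdh15 of that precursor list had log2 fold changes above 0, and its mean differed by -1.04, -0.43, -0.42, -0.52 and 0.37. The pairs of Hs3st1 (-0.36, -0.04, -0.42, -0.29 and -0.21), Xylt1 (-0.22, -0.16, -0.85, -0.05 and -0.60) and Sulf2 (-0.69, -0.33, -0.69, 0.26 and -0.83) were lowest in pairs 3, 3 and 5. The mean of every non-endothelial list except microglia was lowest in pair 1. Within those lists, Cnp (-0.35, -0.01, -0.53, -0.18 and -0.33) and Gfap (-0.66, -0.31, -0.87, -0.25 and -0.21) were lowest in pair 3, as Hs3st1 was. Most other markers of the oligodendrocyte and astrocyte lists were lowest in pair 1. The microglial list differed by 0.76, 0.19, -0.79, 0.01 and -0.63, with pairs 3 and 5 the lowest, as in Xylt1. The part of these cells in the values of the 4 genes was not tested. The precursor cell markers of the oligodendrocyte line (7 of 8 present, 51.1 to 61.2 CPM in controls and 50.3 to 59.5 in APP/PS1, with Pcdh15 listed at 0 in a library) and the microglial markers (6 of 7 present, 54.5 to 62.9 and 51.8 to 60.1 CPM) had 3 and 0 genes lower at an unadjusted p under 0.05.

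**Figure D5:**
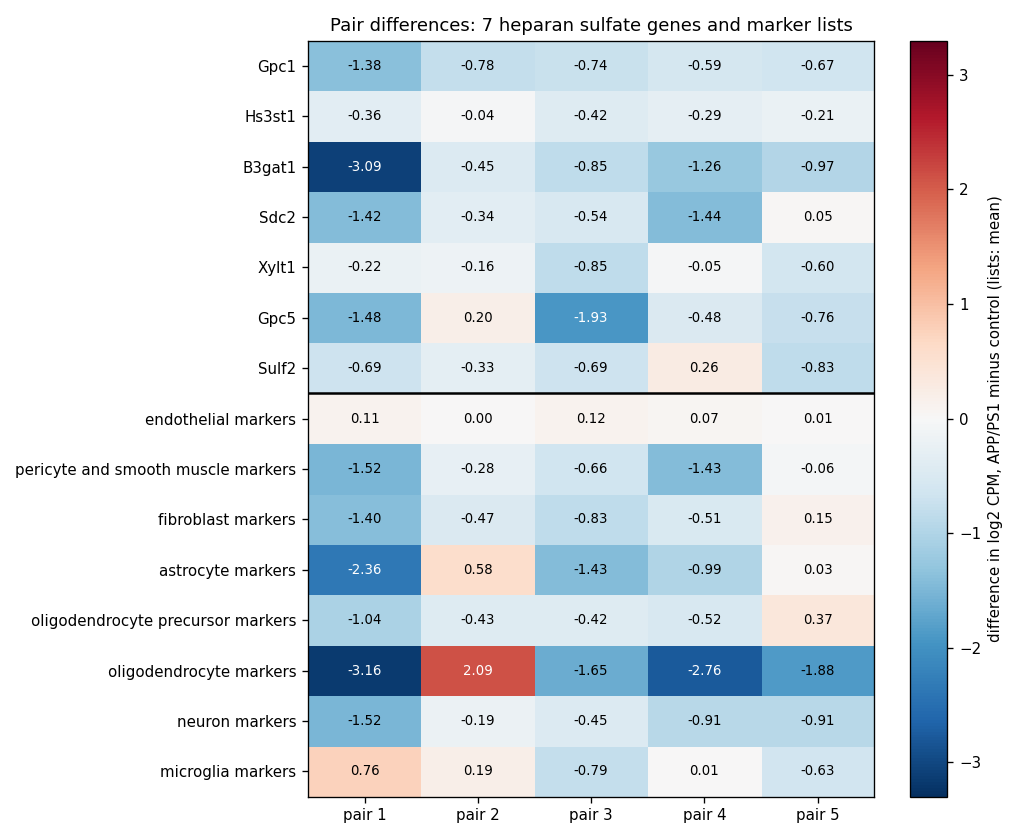
Difference in log2 CPM, APP/PS1 minus control, in each of the 5 pairs for Gpc1, Hs3st1, B3gat1, Sdc2, Xylt1, Gpc5 and Sulf2 and for the mean of each marker list. The row of Sdc2 has its lowest values in pairs 1 and 4, as the row of pericyte and smooth muscle markers does, and the row of endothelial markers stays between 0.00 and 0.12.

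The genes around the pathway showed no adjusted call either. The 6 other heparan sulfate genes looked for (Ndst4, Hs3st4, Hs3st5, Hs3st6, Hs6st3 and Hpse2) had no row in the table used here. Of 10 genes that supply activated sulfate and sugars, 6 had a log2 fold change below 0 and 4 above. Papss2, a synthase of the sulfate donor, was the 1 with an unadjusted p under 0.05, at 4.11 ± 0.19 log2 CPM in controls and 4.53 ± 0.17 in APP/PS1 (SD, n = 5). Its log2 fold change was 0.41 (SE 0.1391, unadjusted p = 0.0261, adjusted p = 0.571 in limma), higher in 4 of 5 pairs. Fam20b, the kinase that phosphorylates the linker, was at -0.01 (adjusted p = 0.964).

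The chondroitin sulfate branch, which competes with heparan sulfate for the same linker, had 13 of 16 genes present, with 8 below 0 and 5 above. Chpf, a chondroitin polymerising factor, was lower in all 5 pairs with a log2 fold change of -0.78 (SE 0.1978, unadjusted p = 0.00812, adjusted p = 0.537 in limma). Chst11, a chondroitin sulfotransferase, was higher in all 5 pairs at 0.21 (SE 0.0592, adjusted p = 0.553), and Chst15, another, was lower in 4 of 5 at -0.22 (SE 0.069, adjusted p = 0.569). Among the 8 lysosomal enzymes that break the chain down, 7 were below 0, of which Arsg (-0.21, adjusted p = 0.571) and Naglu (-0.21, adjusted p = 0.581 in limma) had an unadjusted p under 0.05. Of 8 partners and shedding proteins, 3 were below 0 and 5 above, and Mmp14, a membrane protease that sheds syndecans, was lower in all 5 pairs (-0.79, adjusted p = 0.593 in limma). The list medians were -0.039 for sulfate and sugar supply, -0.044 for the chondroitin branch, -0.075 for breakdown and 0.033 for partners, against -0.0038 over all genes.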

How the data were processed

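RNA was sequenced from 5 control and 5 APP/PS1 libraries of BECs. The authors mapped reads with STAR (mm10), obtained gene counts from HTSeq-count, dropped low genes with edgeR, corrected for batch with ComBat and deposited log2 CPM values for 14106 genes (prior count 3, recovered from the values). Tool versions are not given in the sources used here. The 10 single-library tables were equal to the columns of the joint table. Gene IDs were matched to GENCODE M21 symbols (14106 of 14106), and exon lengths and positions were taken from that annotation (GRCm38).

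From these values, limma 3.58.1 (R 4.3.3, lmFit and eBayes) was fitted to all genes with genotype and replicate pair, leaving 4 residual degrees of freedom, with Benjamini-Hochberg adjustment over all 14106 genes and a threshold of 0.05. The pairing follows the study's own plot of corrected libraries, which numbers 1 control and 1 APP/PS1 library per batch, whereas the sample labels give 4 batches, with replicates 4 and 5 in the same one. It was checked on the values: pair means were nearly equal (median SD 0.00353 against 0.173 for pair differences). The values returned whole numbers of adjusted counts within 0.05 counts (100.0% of values). These are not reads, since correction came before them, and they were used for levels per kilobase of merged exons and for the alternatives (limma-voom, another scaling, a minimum count). Fold changes are on the log2 scale with the prior count included, which understates the change of low genes. Intervals cover the spread between pairs only. The fit was run on simulated data, where the check covered only the mean estimate of the changed genes and not the p-values.

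Values are given in full for genes with an unadjusted p under 0.05, genes with all 5 pairs in 1 direction, the 3 largest absolute fold changes and the highest level in each role, and for at most 3 genes with the smallest p in each list around the pathway. Further members are named with their values as examples. Members, lists and rules were chosen with earlier results of these data known. Alternatives were the model without pairs, the labelled batches, other scalings, prior counts, filters and variance models, and leaving out each pair. Protein features were not analysed here.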

Additional observations from a re-analysis of the deposited data

Results flagged for a closer look

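In 64 groups of 5 libraries (32 genes in both genotypes), 5 groups in 4 genes held a library whose gap to the nearest of the others passed the 95% critical value of Dixon's test, and chance gives about 1 in 20 groups. For Gpc1, replicate 1 lay apart in both groups, at 0.58 log2 CPM in the control (others 0.24 to 0.34) and at -0.79 in APP/PS1 (others -0.44 to -0.35). For B3gat1, replicate 1 of APP/PS1 was at -2.55, with the others at -1.27 to -0.78. For Gpc6, replicate 5 of the control was at 2.30, with the others at 3.15 to 3.41. For B3gat2, replicate 3 of APP/PS1 was at 2.89, with the others at 3.15 to 3.23. Because pair means were set nearly equal by the batch correction, a library that lay apart was mirrored by its partner, so these values do not say which library of the pair departed. For the same reason the 64 groups are not independent, and the rate of 1 in 20 is only a rough guide to the count. Replicate 1 had the lowest total of adjusted counts in both groups.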

How the results depend on the processing

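With the replicate block in the model, 0 genes of the set passed the adjusted threshold and 7 the unadjusted one. Without the replicate block these counts were 2 and 9 (648 and 3049 over all genes), with adjusted p-values of 0.00238 for Gpc1 and 0.0179 for Hs3st1, and the count of adjusted calls stayed at 0 under every other alternative. That model assumes 10 independent libraries, which the equal pair means do not give. Leaving out each pair gave 4 to 8 unadjusted calls: 4 without pair 1 (B3gat1, Gpc1, Hs3st1, Xylt1) and 4 without pair 3 (B3gat1, Gpc1, Hs3st1, Sdc2). Without pair 5 Extl2, Gpc3 and Gpc6 replaced Gpc5, Sulf2 and Xylt1. The genes lower in all pairs used numbered 4 to 8, with 7 without pair 4 and 8 without pair 5. A gene lower in all pairs stays so when a pair is left out, so this count can only stay or rise. The share over all genes is not given here for this count. Gpc1 and Hs3st1 kept an unadjusted p under 0.05 under all 14 settings. Their leave-one-out log2 fold changes ran from -0.89 to -0.69 and from -0.32 to -0.23. With at least 10 adjusted counts required in every library, B3gat1 and Gpc5 were not kept. Of the 30 genes kept, 5 were lower at an unadjusted p under 0.05, against 5.71% of all genes kept.

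Of 414 single-gene values, 20 changed sign, in 14 genes near 0 or with opposed pairs. Scaling by library size alone moved the median over all genes to -0.0409 and gave Xylt2 -0.0053, Extl3 -0.0194, Sdc3 -0.0051, Glce -0.0016, Hs2st1 -0.0321 and Hs6st1 -0.0054, so that 28 genes of the set were below 0 in place of 22. limma-voom gave Extl3 -0.0052. Leave-one-out ranges that crossed 0 were -0.002 to 0.016 for Hs2st1, -0.008 to 0.0902 for Hs6st1, -0.3698 to 0.2158 for Sdc4, -0.0391 to 0.0684 for Xylt2, -0.038 to 0.0715 for Extl3, -0.1465 to 0.3267 for Gpc2, -0.0669 to 0.0789 for Ndst1, -0.0984 to 0.0529 for B3gat2, -0.0333 to 0.0409 for Gpc4, -0.0927 to 0.0041 for B3gat3, -0.319 to 0.0049 for Ndst3 and -0.3114 to 0.0819 for Sdc1. The cause was not tested.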
